A study of Homo sapiens with 6 samples.

Results

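The transcripts described here are 10 genes of the interferon system: the ligands IFNB1, IFNE, IFNL1, IFNL2 and IFNL3, and the receptor chains IFNAR1, IFNAR2, IFNLR1, IL10RB and IFNGR1. They were taken by symbol from the 63677 gene identifiers in the count table, and all 10 were found. The rule itself used no measured value, but the list was drawn up with earlier results of these data known. The cells were UWB1.289, a human ovarian cancer line that lacks functional BRCA1 and whose genotype the labels give as WT. They received the PARP inhibitor Olaparib at 4 µM for 24 h (3 samples) or DMSO, its solvent, for 24 h (3 samples), and there was no untreated or interferon-treated group. The series' own design text gives 10 µM, whereas every sample label gives 4 µM. The comparison asks whether inhibiting PARP changed the RNA of the signals that start interferon signaling and of the receptors that receive them.

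Interferons are secreted proteins that alert cells to viral nucleic acid and to damaged or misplaced DNA. Type I interferons, among them IFNB1 and IFNE, bind the chain pair IFNAR1 and IFNAR2. Type III interferons, IFNL1 to IFNL3, bind IFNLR1 with IL10RB, a chain also used by receptors for IL10, IL22 and IL26. Type II interferon, IFNG, binds IFNGR1 with IFNGR2. Each receptor activates JAK kinases and STAT factors, which switch on interferon-stimulated genes. Most ligand genes are silent until a sensor pathway activates IRF and NF-kB factors at their promoters, whereas IFNE is known for steady expression in the epithelium of the female reproductive tract.

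In these cells, 4 of the 5 ligands (IFNB1, IFNL1, IFNL2 and IFNL3) were at the count floor in every library, IFNE was detected at a low level, and all 5 receptor chains were detected clearly. Of the 10 transcripts, 7 had enough counts to be tested, and 0 were called higher or lower after Olaparib, beside 3.36% of all genes tested. In the same libraries, 21 of 28 interferon-stimulated genes were called higher. The floor is 3 counts per library, which is what a count of 0 still allows. In libraries of 35360458 to 39640775 counts it equals 0.0757 to 0.0848 CPM (counts per 1000000 counts of the library). Floors cover counting error only, whereas the intervals of fold changes also hold the spread between replicates. The samples carry replicate numbers, and the labels describe 3 dishes per condition. The methods of the study call the replicates independent without saying on what level, so p values concern these samples only. They rest on counting error and on a spread between samples that edgeR moderates across genes.

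The ligand genes sit in a pair of clusters (coordinates on GRCh38, GENCODE release 44). IFNB1 (ENSG00000171855, chromosome 9, 21077104 to 21077942, minus strand) and IFNE (ENSG00000184995, chromosome 9, 21480839 to 21482313, minus strand) lie 405 kb apart from end to end. IFNL3 (ENSG00000197110, 39243455 to 39245250, minus strand), IFNL2 (ENSG00000183709, 39268396 to 39270188, plus strand) and IFNL1 (ENSG00000182393, 39296407 to 39298673, plus strand) fill 55.2 kb of chromosome 19. The 250 bases before the transcript start of IFNB1, IFNL1, IFNL2 and IFNE follow, because inducible ligand genes are known for factor recognition elements near their starts. They are RefSeq sequences on GRCh38.p14, at chr9:21077943-21078192 (minus strand), chr19:39296157-39296406 (plus), chr19:39268146-39268395 (plus) and chr9:21482314-21482563 (minus). Capitals mark the interferon response element (GAAA, any 2 bases and GAAA again), the GAS element TTCNNNGAA and the kappa B consensus, searched on both strands.
IFNB1: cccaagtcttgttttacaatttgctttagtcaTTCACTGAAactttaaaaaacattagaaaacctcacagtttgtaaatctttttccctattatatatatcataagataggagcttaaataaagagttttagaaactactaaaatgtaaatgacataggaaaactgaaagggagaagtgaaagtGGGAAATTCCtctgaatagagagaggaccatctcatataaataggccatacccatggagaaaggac
IFNL1: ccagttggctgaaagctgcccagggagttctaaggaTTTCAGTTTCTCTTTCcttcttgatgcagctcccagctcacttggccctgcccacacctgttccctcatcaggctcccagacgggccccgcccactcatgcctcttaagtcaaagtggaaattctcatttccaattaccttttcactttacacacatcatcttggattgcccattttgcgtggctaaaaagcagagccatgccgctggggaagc
IFNL2: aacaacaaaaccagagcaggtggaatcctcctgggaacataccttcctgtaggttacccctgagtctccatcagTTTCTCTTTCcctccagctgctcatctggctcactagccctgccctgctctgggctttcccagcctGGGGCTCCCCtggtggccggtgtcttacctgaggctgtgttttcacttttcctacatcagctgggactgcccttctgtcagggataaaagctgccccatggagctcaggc
IFNE: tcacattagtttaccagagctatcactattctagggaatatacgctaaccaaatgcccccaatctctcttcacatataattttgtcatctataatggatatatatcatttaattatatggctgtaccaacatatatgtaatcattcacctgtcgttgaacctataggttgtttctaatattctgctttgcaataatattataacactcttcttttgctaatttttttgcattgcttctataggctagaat

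The window of IFNB1 held a kappa B match from base -66 to -57, a GAS match from -218 to -210 and a TATAAA at -31, counted from the base before the transcript start as -1. That of IFNL1 held 2 interferon response elements that overlap each other, starting at -214 and -208. The windows of IFNL2 and IFNL3 each held 1 interferon response element at -176 and 1 kappa B match at -110, and they were identical at 249 of 250 bases. The window of IFNE held none of these motifs, and that of IFNB1 held no interferon response element by the pattern used. Elements of another spacing were not searched, so this does not show that the IFNB1 window lacks them. Over all 35116 RefSeq windows of this length, the interferon response element was found in 3.02%, TTCNNNGAA in 6.57%, the kappa B consensus in 5.21% and TATAAA in 10.7%, so single matches are common. A match is a string of letters and does not show that a factor bound there.

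IFNB1, the interferon made first by most infected cells, had 1, 1 and 3 counts in the Olaparib libraries and 1, 2 and 3 in the DMSO libraries. These groups overlapped completely, and no fold is given because both lie at the floor. Its 11 counts in total put it just over the minimum of more than 10 counts for the test, in which its adjusted p was 0.948 (edgeR's quasi-likelihood test, adjusted by the method of Benjamini and Hochberg).

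The type III ligands were lower still. IFNL1 had 0, 0 and 1 counts after Olaparib and 0, 1 and 0 after DMSO. IFNL2 had 0 counts in each Olaparib library and 0, 0 and 1 after DMSO, and IFNL3 had 0 in all 6 libraries, which allows up to 3 counts in each. Spliced transcripts of IFNL2 and IFNL3 were 98.0% identical over 951 aligned bases, so reads of the one can match the other. Such reads may have been left out or given to the wrong gene, so these low counts are uncertain. For comparison, IFNL1 and IFNL2 were 78.0% identical over 758 aligned bases. These 3 genes were not tested, since they had 10 counts or fewer in total.

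**Figure D1:**
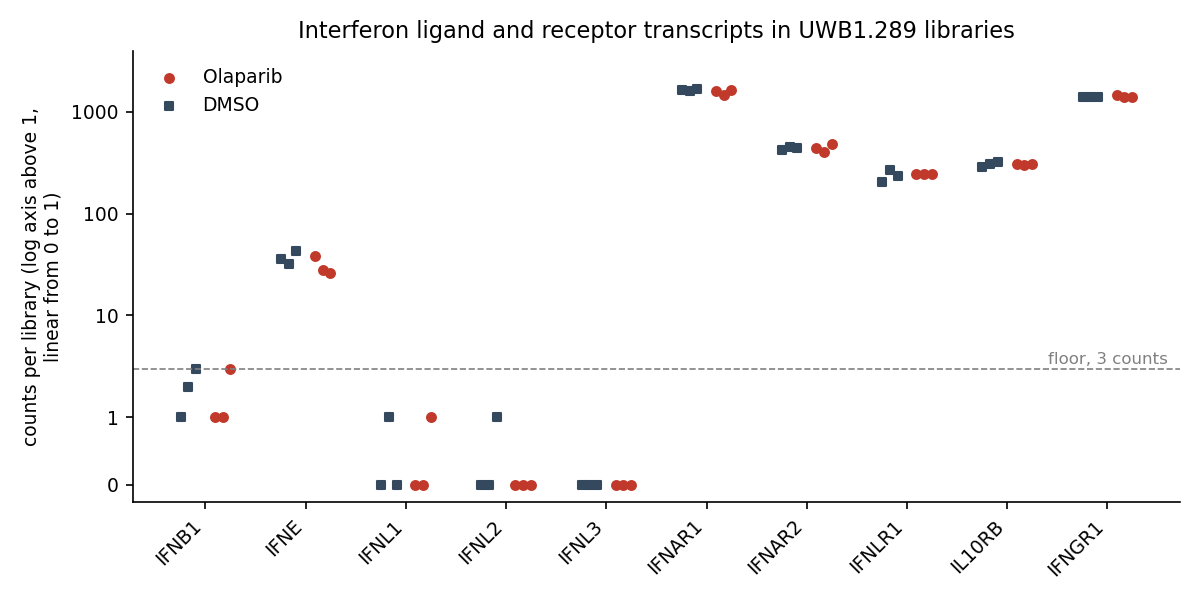
Counts per library (log axis above 1, linear from 0 to 1) of the 10 transcripts, 3 Olaparib libraries as circles and 3 DMSO libraries as squares, with the floor of 3 counts dashed. IFNB1 and IFNL1 to IFNL3 lie at or under the floor, IFNE lies between 26 and 43 counts, and the receptor chains lie between 207 and 1670, with both groups at the same height.

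IFNE was the single ligand above the floor. It had 38, 28 and 26 counts in the Olaparib libraries and 36, 32 and 43 in the DMSO libraries. After normalization this was 31.0 ± 6.61 (SD, n = 3) against 36.6 ± 4.78 (n = 3) normalized counts. Olaparib replicate 1 lay among the DMSO samples and the other two Olaparib samples lay below all of them, so the groups overlapped. The log2 fold change was -0.24 with a 95% interval from -0.67 to 0.19 (adjusted p = 0.664, edgeR's quasi-likelihood test), so a change of either sign was not detectable at this depth. The value ran from -0.42 without Olaparib replicate 1 to -0.12 without Olaparib replicate 3. IFNE consists of 1 exon inside an intron of the long noncoding RNA gene MIR31HG (chromosome 9, 21380073 to 21559891), which is read from the same strand. MIR31HG had 27, 32 and 27 counts after Olaparib and 28, 32 and 39 after DMSO, close to the numbers for IFNE. No exonic base of IFNE was shared with another gene. Whether unspliced MIR31HG RNA adds to the IFNE counts was not tested.

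A wider list of 17 interferon ligands outside the 10 genes gave the same picture. All 17 were at the floor and 15 had no count in any library. Of the 13 IFNA genes, 12 had 0 counts and IFNA2 had 1 count in 1 DMSO library. IFNG, the type II ligand, had 0, 1 and 0 counts after Olaparib and 3, 1 and 1 after DMSO. Together with the 5 ligands above, 21 of 22 interferon ligand genes were at the floor. These floors hold for counted reads only. The sources used here do not say whether reads that match several alike genes were counted. The ligands IL10, IL22 and IL26, which share IL10RB, were at the floor too, with 1 count of IL26 in 1 Olaparib library. Of 5 markers of plasmacytoid dendritic cells, a main source of type I interferon in blood, 4 were at the floor. CLEC4C had 1 count in 1 library, LILRA4 had 0 in all 6, SPIB had 0 to 1, and IL3RA had 1, 2 and 2 after Olaparib and 0 in each DMSO library. The fifth, TCF4, a factor of many tissues, had 466 to 540. Of 7 markers of leukocytes, T cells and NK cells, 4 were at the floor: CD3D and NKG7 had 0 counts in every library, and CD3E and GNLY had 0 to 2. The other 3 were above it, with 53 to 75 counts for PTPRC, 9 to 22 for CD8A and 22 to 38 for NCAM1. Of 10 epithelial markers, KRT8, KRT18, EPCAM and PAX8 had at least 10592 counts in every library. Others were lower, with 1243 to 1488 counts for CDH1 and 173 to 230 for WFDC2, the lowest. Of 5 fibroblast markers, 3 were at the floor, whereas COL1A1 had 237 to 328 counts and COL1A2 had 1344 to 1557.

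The receptor chains were all well above the floor. Their genes stand on 3 chromosomes: IFNLR1 (ENSG00000185436) on chromosome 1, 24154168 to 24187959, IFNGR1 (ENSG00000027697) on chromosome 6, 137197483 to 137219449, and the others in a row on chromosome 21. That row holds IFNAR2 (ENSG00000159110, 33205282 to 33265675), IL10RB (ENSG00000243646, 33266367 to 33311420), IFNAR1 (ENSG00000142166, 33324387 to 33359864) and IFNGR2, within 274 kb. The windows before the RefSeq starts of the receptor genes differed from those of the ligands in a feature the choice of genes did not use. The 5 ligand windows held 0 to 4 CpG dinucleotides, the windows of IFNAR1, IFNLR1, IL10RB and IFNGR1 held 15 to 24, and the median over all windows was 11. RefSeq starts can lie inside the gene spans given here. The window of IFNLR1, 24187290 to 24187539, lay wholly inside its span, and those of IFNAR1 and IFNGR1 reached into theirs. IL10RB is shown as the example at chr21:33266117-33266366 (plus strand, RefSeq on GRCh38.p14), with its 17 CpG in capitals.
IL10RB: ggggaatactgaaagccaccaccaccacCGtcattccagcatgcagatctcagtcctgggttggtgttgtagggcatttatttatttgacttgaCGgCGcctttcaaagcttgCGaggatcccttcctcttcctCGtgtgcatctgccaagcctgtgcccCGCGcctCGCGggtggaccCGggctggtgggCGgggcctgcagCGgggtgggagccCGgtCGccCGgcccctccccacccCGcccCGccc

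IFNAR1, the chain of the type I receptor that carries TYK2, had 1604, 1479 and 1637 counts in the Olaparib libraries and 1631, 1626 and 1670 in the DMSO libraries. Normalized counts were 1589 ± 62.6 and 1628 ± 67.5 (SD, n = 3 each), and the groups overlapped. Its log2 fold change was -0.034 with a 95% interval from -0.12 to 0.056 (adjusted p = 0.796, edgeR's quasi-likelihood test), an interval of -8.22% to 3.98%. IFNAR2, the high-affinity chain that carries JAK1, had 443, 407 and 488 counts after Olaparib and 427, 454 and 445 after DMSO. The highest and the lowest of its 6 normalized counts, 485 and 417, were both Olaparib samples. Its log2 fold change was 0.042 (interval -0.084 to 0.17, adjusted p = 0.825, edgeR's quasi-likelihood test). The sign of neither difference was stable: IFNAR1 was at 0.0025 without DMSO replicate 1, and IFNAR2 at -0.017 without Olaparib replicate 3.

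IFNLR1, the chain that limits type III responses mainly to epithelial cells, had 245, 244 and 245 counts after Olaparib and 207, 267 and 237 after DMSO. The Olaparib samples lay inside the range of the DMSO samples. Normalized counts were 247 ± 3.42 and 234 ± 24.2 (SD, n = 3 each). Its log2 fold change was 0.076 (interval -0.093 to 0.25, adjusted p = 0.745, edgeR's quasi-likelihood test). This interval was the widest of the 5 chains, reaching from -6.23% to 18.6%. Without DMSO replicate 1 the value was 0.027, and without DMSO replicate 2 it was 0.16. IL10RB, its shared partner, had 308, 304 and 311 counts after Olaparib and 285, 305 and 319 after DMSO.

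IL10RB was the 1 tested transcript of the 10 whose groups did not overlap. It had normalized counts of 312, 312 and 309 in the Olaparib samples and of 298, 299 and 302 in the DMSO samples, with SDs of 1.52 and 2.30. Such a separation in either direction occurred for 19.3% of all genes tested, upward for 10.0% and downward for 9.29%. The log2 fold change was 0.052 (interval -0.089 to 0.19, adjusted p = 0.801, edgeR's quasi-likelihood test). That interval also holds counting error and a spread that edgeR estimates across genes, so it is wider than the SDs alone would give.

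IFNGR1, the ligand-binding chain of the type II receptor, had 1478, 1390 and 1391 counts after Olaparib and 1413, 1400 and 1411 after DMSO. The groups overlapped, at 1435 ± 57.1 and 1396 ± 72.7 normalized counts (SD, n = 3 each). Its log2 fold change was 0.040 (interval -0.054 to 0.13, adjusted p = 0.760, edgeR's quasi-likelihood test). It ran from 0.0085 without DMSO replicate 3 to 0.084 without DMSO replicate 1.

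Of the 10 genes, 7 had more than 10 counts in total and were tested, and 0 passed an adjusted p of 0.05 in edgeR's quasi-likelihood test, beside 3.36% of all 21729 genes tested (2.15% higher and 1.21% lower). With a change above 1.2-fold as a further condition, 0 passed, beside 1.21% of all genes (0.723% higher and 0.483% lower). None of the 7 had an unadjusted p under 0.05, and DESeq2 and limma voom also called 0, where DESeq2 gave no adjusted p for IFNB1 and IFNE. For each of the 5 receptor chains, the 95% interval excluded a 1.2-fold change of its counted reads in either direction. The median log2 fold change of the 5 chains was 0.042 and that of all genes tested was -0.0042.

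**Figure D2:**
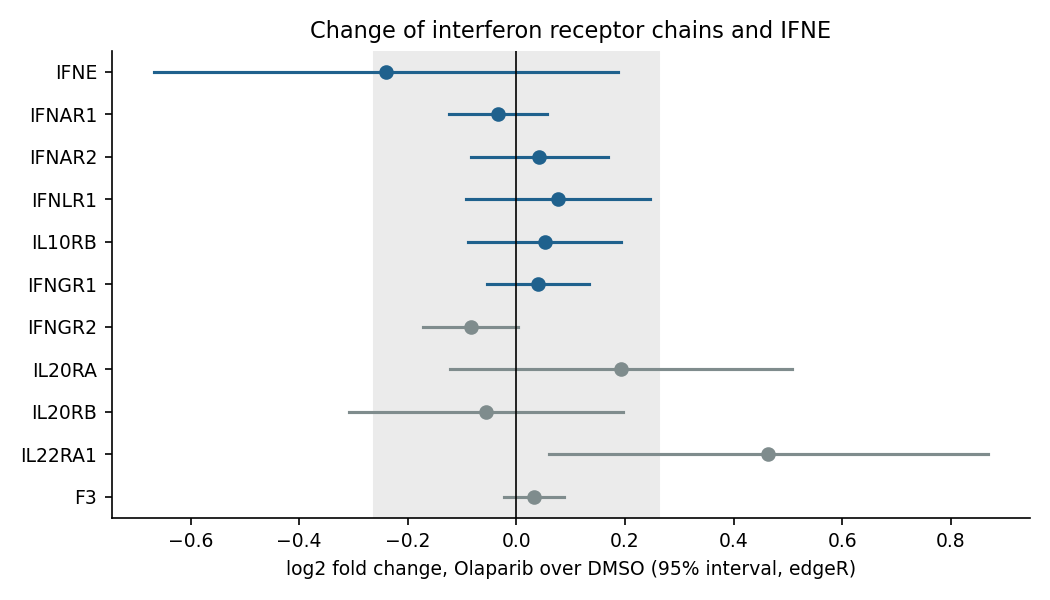
Log2 fold change of Olaparib over DMSO (points) with its 95% interval from edgeR (lines), for IFNE and the 5 receptor chains in blue and for related receptor chains in gray; the band marks changes under 1.2-fold. The intervals of IFNAR1, IFNAR2, IFNLR1, IL10RB and IFNGR1 cross 0 and stay inside the band, and that of IFNE, from -0.67 to 0.19, reaches outside it.

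The related receptor chains were described in the same way. IFNGR2, the partner of IFNGR1, stood at 1282, 1272 and 1300 normalized counts in the Olaparib samples and at 1362, 1358 and 1366 in the DMSO samples. All 3 Olaparib samples lay below the DMSO samples, but the log2 fold change was -0.084 (interval -0.17 to 0.0029, adjusted p = 0.362, edgeR's quasi-likelihood test). IL22RA1, which pairs with IL10RB to bind IL22, had 35, 41 and 47 counts after Olaparib and 28, 32 and 31 after DMSO. These groups did not overlap, and the log2 fold change of 0.46 (interval 0.061 to 0.87) had an adjusted p of 0.240 in edgeR's quasi-likelihood test. IL10RA, the specific chain of the IL10 receptor, had 5, 5 and 4 counts after Olaparib and 0, 1 and 3 after DMSO, at the floor in the DMSO group. IL20RA and IL20RB, chains for IL20 family cytokines, had 52 to 74 and 94 to 137 counts, with overlapping groups. IL22RA2, a secreted IL22-binding protein, had 4 to 8 counts. F3, the tissue factor that starts coagulation and belongs to the same structural family, had 27536 to 30829. The adjusted p of these last 4 was 0.622 to 0.914 in edgeR's test. Of these 7 genes, 0 passed an adjusted p of 0.05 in edgeR's test and 2 (IL22RA1 and IL10RA) had an unadjusted p under 0.05, beside 14.8% of all genes tested.

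The counts of IFNAR2 and IL10RB carry a limit of their own. The readthrough gene IFNAR2-IL10RB (ENSG00000249624) shares 14.7% of the exonic bases of IFNAR2 and 21.6% of those of IL10RB on the same strand. Of the reference transcripts (MANE Select), it covers 49.1% of the bases of IFNAR2, touching all 9 exons, and 89.2% of those of IL10RB, touching 6 of 7. IFNAR2-IL10RB itself had 0 counts in all 6 libraries. By its default, featureCounts leaves out reads that lie in exons of more than 1 gene, and the setting used is not given in the sources used here. The counts of both chains may therefore stand for only part of their reads. All 6 libraries were counted in the same way, and this bears on levels between genes. If such reads were left out, the fold changes of both chains also rest on their other exonic bases only, which was not tested. Exons of genes on the opposite strand cover 15.0% of the exonic bases of IFNGR2 and 13.0% of those of IFNAR2, and without the strand setting these reads cannot be told apart. All these shares were taken from GENCODE release 44, and the annotation used for counting may differ from it.

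**Figure D3:**
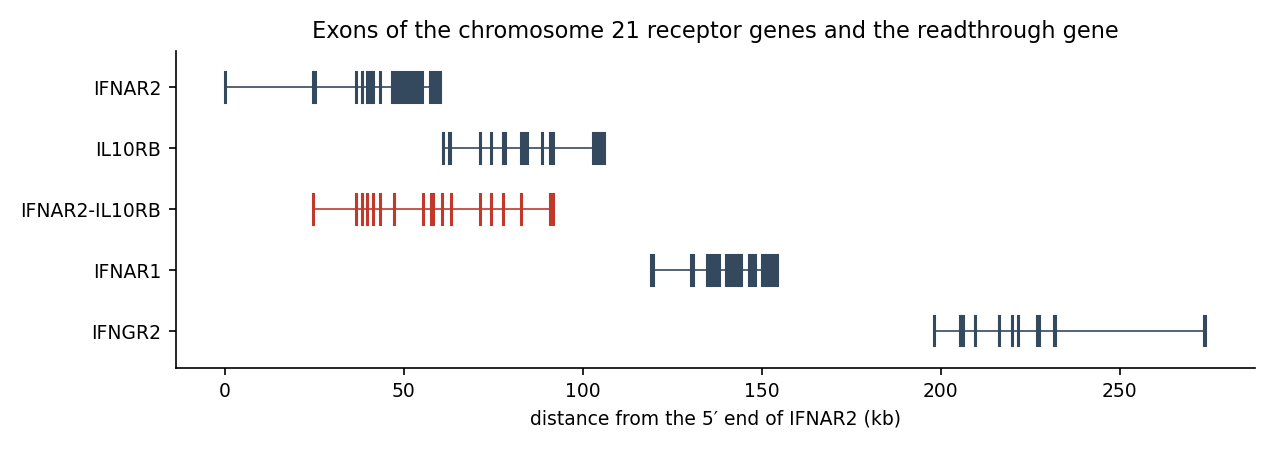
Exons (boxes, drawn at least 0.3 kb wide) and gene spans (lines) of IFNAR2, IL10RB, IFNAR1, IFNGR2 and the readthrough gene IFNAR2-IL10RB in red, by distance from the 5′ end of IFNAR2 in kb. Exons of the readthrough gene stand under those of both IFNAR2 and IL10RB, and none stands under IFNAR1 or IFNGR2.

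Levels of different genes were compared per length, as length-scaled CPM (counts per kilobase, scaled to the same total of 1000000 in each library). Lengths came from GENCODE release 44, whereas the count table also holds identifiers outside it. The exons used for counting may therefore differ from those that gave the lengths. Dividing by all annotated exonic bases, the order from high to low over the 6 libraries was IFNGR2 at 50.7, IFNGR1 at 38.8, IFNAR1 at 9.99, IFNLR1 at 4.74, IL10RB at 3.70 and IFNAR2 at 3.12. In both groups the 3 samples of each chain lay above the 3 samples of the next chain in this order. By this length, the chains of the type II receptor stood at the top. IFNE had a level of 2.23 and IFNB1 one of 0.210 on this scale.

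The lower part of that order depended on the length used. By the length of the reference transcript, chosen after the values were seen, the levels were 44.8 for IFNGR2, 39.3 for IFNGR1, 15.2 for IFNAR1, 9.05 for IL10RB, 6.27 for IFNAR2 and 3.03 for IFNLR1, so that IFNLR1 moved to the end. By the exonic bases that no other gene shares, IFNLR1 and IL10RB were at 4.74 and 4.72 with overlapping samples. The order IFNGR2, IFNGR1, IFNAR1 at the top held under all 3 lengths. Of the 1941 bases of the reference transcript of IL10RB, 1732 are shared with the readthrough gene, and no length took them out of that transcript. Where IL10RB and IFNAR2 would stand by the unshared bases of their reference transcripts was not tested. For IFNAR1 the annotated exons add up to 15676 bases, against 6075 in its reference transcript.

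**Figure D4:**
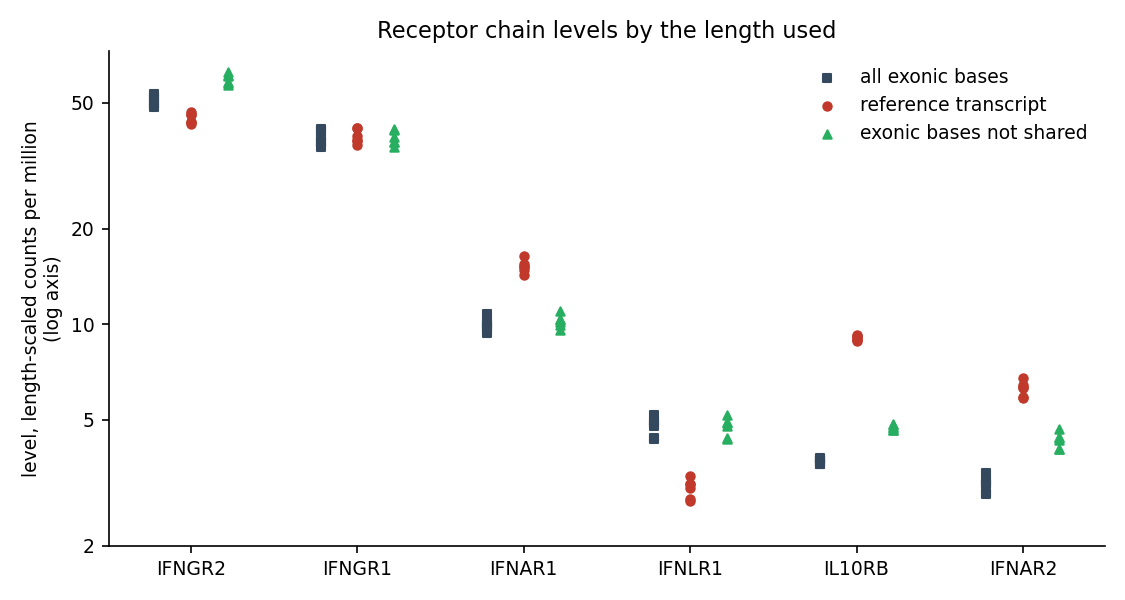
Length-scaled CPM (log axis) of 6 receptor chains, 1 point per library, dividing by all exonic bases (squares), by the reference transcript (circles) or by exonic bases shared with no other gene (triangles). IFNGR2, IFNGR1 and IFNAR1 lead under each length, while IFNLR1 stands above IL10RB and IFNAR2 with squares and below them with circles.

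Each receptor is a pair of chains, so the log2 ratio of the chains was taken within each library, by all exonic bases. IFNAR1 over IFNAR2 was 1.64 ± 0.0652 after Olaparib and 1.72 ± 0.0480 after DMSO (SD, n = 3 each). IFNLR1 over IL10RB was 0.37 ± 0.0135 after Olaparib and 0.34 ± 0.147 after DMSO. IFNGR1 over IFNGR2 was -0.32 ± 0.0669 and -0.45 ± 0.0754. In all 3 pairs the groups overlapped, and the difference of Olaparib minus DMSO on the log2 scale was -0.073, 0.030 and 0.12. The size of a ratio depends on the lengths, but this difference does not.

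As a description, the gene with the profile over the 6 libraries most like that of each chain was sought among 11996 genes with a mean of at least 100 counts. It was LINS1 for IFNAR1 (Pearson's r = 0.996), PCDHA12 for IFNLR1 (0.995), DSCAML1 for IL10RB (0.996) and GREB1 for IFNGR1 (0.985). For IFNAR2 it was ENSG00000108264 (0.986). With 6 values and so many genes, coefficients of this size arise easily, and 10 to 143 genes exceeded 0.95 for each of these chains.

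The rest of the pathway was read from the same test. Of 9 genes next to the receptors (JAK kinases, STAT factors and adaptors), 1 rose and 0 fell, beside 2.15% of all genes tested called higher and 1.21% called lower. The other 8 genes were not called, and the median log2 fold change of the 9 was 0.061. Groups did not overlap for 5 of the 9 upward and 0 downward, beside 10.0% and 9.29% of all genes tested. An unadjusted p under 0.05 in edgeR's test was found for 3 of the 9, beside 14.8% of all genes tested.

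Of 12 negative regulators, 2 rose. SOCS3, a feedback inhibitor of JAK kinases, was at 296, 289 and 298 normalized counts with Olaparib and at 209, 235 and 249 with DMSO. Its groups did not overlap, and its log2 fold change was 0.35 (SE 0.079, adjusted p = 0.00777, edgeR's quasi-likelihood test). ISG15, a ubiquitin-like protein that stabilizes the inhibitor USP18, had a log2 fold change of 0.25 (SE 0.060, adjusted p = 0.0113, edgeR's quasi-likelihood test). For ISG15, Olaparib replicate 1 lay among the DMSO samples, so the groups overlapped. By DESeq2, and without Olaparib replicate 2 or 3 or DMSO replicate 1 or 2, 1 of the 12 was called.

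Of 19 genes that induce ligands, 18 were tested and 3 rose. IRF7, the factor that amplifies IFNA transcription, was at 694, 838 and 843 normalized counts with Olaparib and at 607, 588 and 654 with DMSO. Its groups did not overlap, and its log2 fold change was 0.36 (SE 0.060, adjusted p = 1.9e-04, edgeR's quasi-likelihood test). IFIH1, a cytoplasmic sensor of double-stranded RNA, had a log2 fold change of 0.23 (SE 0.048), and JUN, a factor that binds the IFNB1 enhancer, one of 0.13 (SE 0.032). Their adjusted p values were 0.00376 and 0.0176 in edgeR's quasi-likelihood test. Without DMSO replicate 2, 1 of the 18 was called. RIGI, another RNA sensor, had 2 to 3 counts per library and IKBKE, a kinase of the same pathway, is listed at 0 in all 6. Both were named after their values were seen. Whether reads of these genes were counted under another identifier was not tested.

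Of 28 interferon-stimulated genes, 21 rose and 0 fell, and all 21 exceeded 1.2-fold, beside 0.723% of all genes tested. Their median log2 fold change was 0.45 over the 28, against 0.042 over the 5 receptor chains. DESeq2 called 11 of the 28. The largest differences were those of MX1, IFIT1, IFI44L and OAS2, antiviral effectors, with log2 fold changes of 1.05, 1.04, 1.02 and 0.94. Summed over the 28 genes, normalized counts were 24846, 29889 and 31596 in the Olaparib samples and 23601, 22036 and 24363 in the DMSO samples. By this sum, Olaparib replicate 1 stood just above the DMSO samples. BST2, not called at a log2 fold change of 0.053 and named after its values were seen, made up 9995 of the 24846 in Olaparib replicate 1. In that sample IFNAR1 was at 1623 normalized counts, the third of the 6, and IFNGR1 was at 1496, the highest of the 6.

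Of 16 genes that respond mainly to IFNG, 11 were tested and 1 rose. It was GBP5, an interferon-induced GTPase, whose normalized counts were 236, 241 and 216 with Olaparib and 166, 143 and 134 with DMSO. Its groups did not overlap, and its log2 fold change was 0.65 (SE 0.096, adjusted p = 3.8e-05, edgeR's quasi-likelihood test). Of the 11 tested, 5 had an unadjusted p under 0.05 in edgeR's test, in either direction, beside 14.8% of all genes tested. Groups did not overlap for 4 of the 11 upward and 0 downward, beside 10.0% and 9.29% of all genes tested. Without Olaparib replicate 1, 2 genes of the list were called, and without the filter on low counts, 3. CXCL9, a chemokine, and CIITA and HLA-DRA, genes of class II antigen presentation, had at most 4 counts in any library and were named after their values were seen. In bulk RNA, a change in some of the cells and a smaller change in all of them cannot be told apart.

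**Figure D5:**
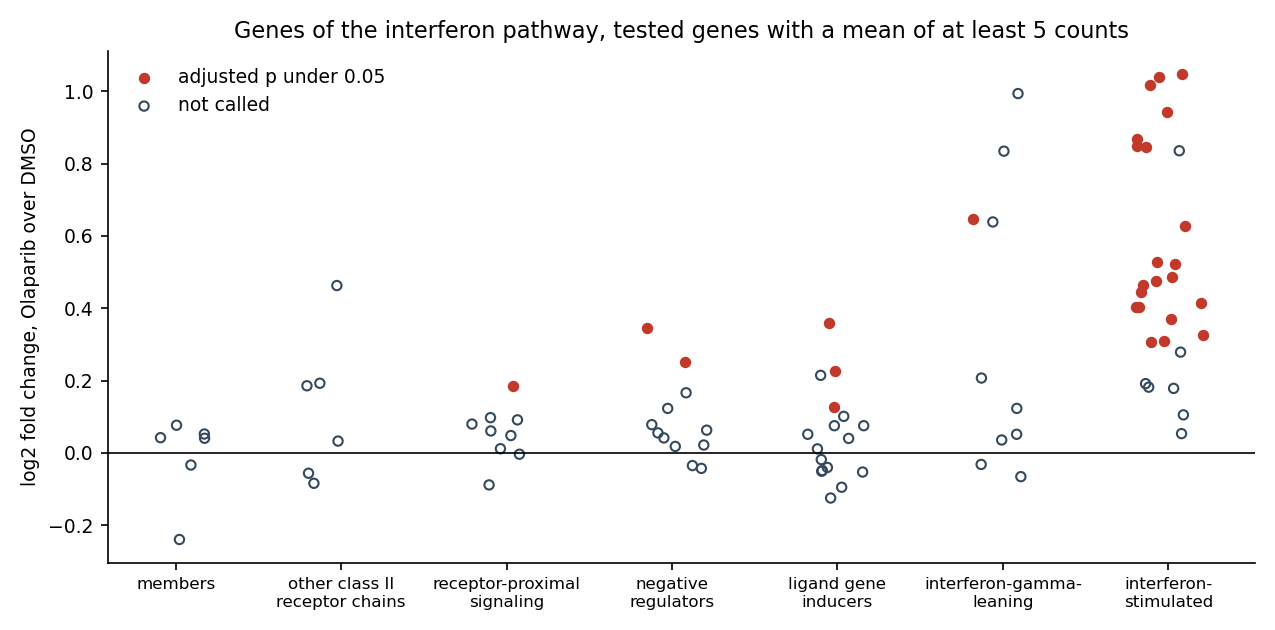
Log2 fold change of Olaparib over DMSO for each tested gene with a mean of at least 5 counts, by list, with genes at an adjusted p under 0.05 in edgeR's test filled and the others open. None of the ligands and receptor chains (members) is filled, whereas 21 interferon-stimulated genes are, all above 0.

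Of the 36 marker genes listed for epithelium and for other cell types, not all had enough counts to be tested. Tested were 10 of 10 epithelial, 1 of 5 plasmacytoid dendritic cell and 3 of 7 leukocyte markers. So were 5 of 5 macrophage and monocyte, 2 of 5 fibroblast and 3 of 4 endothelial markers. Of those tested, 2 were called, both higher, beside 3.36% of all genes tested called and 2.15% called higher. PAX8, a factor of Müllerian epithelium, had 11983, 12204 and 12233 counts after Olaparib and 10592, 11944 and 12130 after DMSO, and its log2 fold change was 0.10. VWF, an endothelial marker, had 63, 68 and 69 counts after Olaparib and 38, 43 and 46 after DMSO, and its groups did not overlap. Of the other 3 endothelial markers, KDR had 92, 92 and 105 counts after Olaparib and 74, 80 and 85 after DMSO, with groups apart in the same direction and an adjusted p of 0.237 in edgeR's test. CDH5 had 1457 to 1772 counts and PECAM1 is listed at 0 in all libraries under the identifier used. The 7 leukocyte markers had sums of 116 to 121 counts in the Olaparib libraries and 91 to 126 in the DMSO libraries. Summed counts of the 5 macrophage and monocyte markers, none of them at the floor, were 63 to 76 after Olaparib and 54 to 55 after DMSO, and 0 of the 5 were called in edgeR's test (1 at an unadjusted p under 0.05). The part of other cell types in the results above was not tested.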

How the data were processed

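The authors used Trimmomatic for adapters, STAR for mapping (GRCh38), Picard to find duplicates and featureCounts to count per gene. Whether duplicates were removed, and the strand setting, are not given in the sources used here. They deposited raw counts per gene for 6 poly(A) libraries, with no normalization. Samples were grouped by their labels.

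Genes with more than 10 counts in total were kept, scaled by TMM and tested with edgeR's quasi-likelihood test (version 4.0.16, R 4.3.3), without a block, with Benjamini-Hochberg adjustment over all 21729 genes. A call is an adjusted p under 0.05. Normalized counts are counts scaled to the mean effective library size. limma 3.58.1 and DESeq2 1.42.0 served as alternatives. The test was tried on simulated counts. Between replicates, chi-square per degree of freedom ran from 1.81 to 4.11, so no library was a copy of another. Gene names and lengths came from GENCODE release 44, which held 82.0% of the identifiers and at least 99.4% of the counts of each library. Sequences came from RefSeq. The RefSeq table had windows for 9 of the 10 genes (not IFNAR2).

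The genes and lists were chosen with earlier results of these data known. Named were all 10 genes, every gene of the lists of other ligands and receptor chains with more than 10 counts, up to 4 called genes of each other list by size of change, and for each chain the gene most like it. The values of 1 called gene of the list next to the receptors are not reported here.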

Additional observations from a re-analysis of the deposited data

How the results depend on the processing

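None of the 10 transcripts was called under any alternative run: DESeq2, limma voom, size factors, upper quartile scaling, no filter, filterByExpr, a replicate block, a 1.2-fold condition or leaving out each sample in turn. DESeq2 gave no adjusted p for IFNB1 and IFNE, and IFNB1 was not tested with filterByExpr or with a sample left out. IFNL1 and IFNL2 were tested only without the filter, and IFNL3 in no run. With 1 sample left out, the log2 fold change ran from -0.055 to 0.0025 for IFNAR1 (the latter without DMSO replicate 1) and from -0.017 (without Olaparib replicate 3) to 0.094 for IFNAR2, and the cause was not tested. It ran from -0.42 to -0.12 for IFNE, from 0.027 to 0.16 for IFNLR1 and from 0.0085 to 0.084 for IFNGR1, with the sign kept. By 10 counts in total, 3 rather than 4 ligands were at the floor. Replicate numbers were not seen to pair the samples (correlations of deviations of -0.204, 0.263 and -0.319 for the same numbers). With the replicate block, 2 receptor-proximal genes, 4 negative regulators and 3 IFNG-responsive genes were called higher, 1 ligand inducer lower and 23 interferon-stimulated genes higher. DESeq2 called 1 negative regulator and 11 interferon-stimulated genes. Without the filter, 3 IFNG-responsive genes were called. With 1 sample left out, calls were 1 to 3 for negative regulators (1 without Olaparib replicate 2 or 3, or DMSO replicate 1 or 2), 1 to 3 for ligand inducers (1 without DMSO replicate 2), 1 to 2 for IFNG-responsive genes (2 without Olaparib replicate 1) and 15 to 22 for interferon-stimulated genes.

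Levels, in the order IFNAR1, IFNAR2, IFNLR1, IL10RB and IFNGR2, were 18.6, 3.51, 3.77, 5.31 and 54.3 by the longest transcript and 15.2, 6.27, 3.03, 9.05 and 44.8 by the reference transcript. By unshared bases they were 4.31 for IFNAR2, 4.72 for IL10RB and 59.6 for IFNGR2. As TMM-scaled CPM per kilobase, a smaller unit, they were 2.74, 0.856, 1.30, 1.02 and 13.9, and 10.7 for IFNGR1. Log2 ratios by the longest transcript, the reference transcript and unshared bases were 2.41, 1.28 and 1.25 for IFNAR1 over IFNAR2 and -0.50, -1.58 and 0.0037 for IFNLR1 over IL10RB. IFNGR1 over IFNGR2 was -0.19 by the reference transcript and -0.62 by unshared bases. The reference transcript and unshared bases were chosen after seeing the data. Depth limits what can be said of the 4 ligands at the floor and of IFNE.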
